A study of Mus musculus with 15 samples.

Results

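Transcript levels of 10 cytokine genes were followed in 15 RNA libraries of mouse bone marrow derived macrophages. The genes were Tnf, the IL-1 family agonists Il1a, Il1b, Il1f9 and Il18, the antagonists Il1rn and Il18bp, and the interleukins Il6, Il10 and Il27. They were taken as a named list out of 25700 gene identifiers in the count table. The list was chosen with earlier results of these data known. Marrow cells of mice aged 8 to 10 weeks were differentiated in every group with M-CSF (10 ng/ml) over 7 days. The 5 groups of 3 libraries received 400 µM heme-albumin, 200 µM heme-albumin, IFN-γ at 10 ng/ml (termed M1), IL-4 at 10 ng/ml (termed M2), or nothing further (control). Heme-albumin is hemin bound to human serum albumin, and the labels use it to model macrophages that have engulfed red blood cells. The controls were not stated to have received albumin without heme, so heme and its carrier cannot be told apart. Neither the strain of the mice, whether the 3 libraries of a group came from separate animals, nor the time under treatment was given in the sources used here, and p-values measure the spread between these libraries.

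TNF and the IL-1 family are early signals of macrophages. Membrane TNF and pro-IL-1α can act uncut, whereas pro-IL-1β and pro-IL-18 are cut by caspase-1 inside inflammasomes before release. Il1f9 encodes IL-36γ, which acts on the receptor encoded by Il1rl2. IL-1 receptor antagonist (Il1rn) blocks the IL-1 receptor, and IL-18 binding protein (Il18bp) captures IL-18 outside the cell. IL-6 drives acute phase responses, IL-10 restrains macrophage activation, and IL-27 is a pair of the Il27 product with the Ebi3 product. Transcript counts say nothing of cleavage or release.

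Promoter windows were available for 8 of the genes, in the RefSeq table for GRCm38.p6, each from 250 bases before to 50 bases after an annotated start. The 4 shown belong to the genes with the largest or most sharply divided responses below, and all run 5′ to 3′ on the gene's strand. Capitals mark a gamma-activated site (GAS: TTC, any 3 bases, GAA), the site bound by STAT dimers in the textbook scheme of IFN-γ signalling. The Il1f9 window lies at chr2:24186226-24186525 on the plus strand, the Il18 window at chr9:50554450-50554749 on the plus strand, the Il18bp window at chr7:102018183-102018482 on the minus strand and the Tnf window at chr17:35201958-35202257 on the minus strand.
Il1f9: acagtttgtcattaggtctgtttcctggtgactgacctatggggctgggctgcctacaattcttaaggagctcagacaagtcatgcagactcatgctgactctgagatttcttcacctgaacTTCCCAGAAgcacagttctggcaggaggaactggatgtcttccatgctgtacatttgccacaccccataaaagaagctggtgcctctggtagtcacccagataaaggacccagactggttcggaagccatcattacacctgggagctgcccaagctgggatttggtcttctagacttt
Il18: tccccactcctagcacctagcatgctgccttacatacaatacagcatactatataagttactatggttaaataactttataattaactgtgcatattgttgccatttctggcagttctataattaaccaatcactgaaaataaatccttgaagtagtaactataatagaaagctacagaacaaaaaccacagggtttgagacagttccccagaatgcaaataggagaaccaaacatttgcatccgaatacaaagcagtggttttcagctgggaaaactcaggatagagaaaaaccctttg
Il18bp: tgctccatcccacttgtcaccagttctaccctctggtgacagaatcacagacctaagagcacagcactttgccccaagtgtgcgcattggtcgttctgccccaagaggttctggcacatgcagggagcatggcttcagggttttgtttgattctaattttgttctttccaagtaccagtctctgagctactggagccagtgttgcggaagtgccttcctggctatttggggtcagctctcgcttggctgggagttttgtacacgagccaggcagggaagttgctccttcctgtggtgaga
Tnf: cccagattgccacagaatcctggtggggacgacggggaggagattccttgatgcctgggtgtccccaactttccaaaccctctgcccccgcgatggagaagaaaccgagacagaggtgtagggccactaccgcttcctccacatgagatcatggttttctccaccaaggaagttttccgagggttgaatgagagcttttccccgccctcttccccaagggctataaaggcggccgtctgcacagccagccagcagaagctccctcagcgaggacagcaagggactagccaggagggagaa

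A total of 6 motifs were searched on both strands of these windows: the antioxidant response element core (TGAC, any 3 bases, GC), the GAS letters, the interferon regulatory factor core (GAAA, any 2 bases, GAAA), the NF-κB consensus, AP-1 (TGACTCA or its reverse complement TGAGTCA) and a strict form of the STAT6 site, of 12 letters (TTCC, any 4 bases, GGAA). Shorter forms of the STAT6 site were not searched. The Il1f9 window held 1 GAS match, at bases -128 to -120 from the start, and 8.3% of 32851 windows in the table hold 1. The windows of Il18, Il18bp, Il1b and Tnf held none of the 6 motifs in the forms searched. The Il6 window at chr5:30012864-30013163 on the plus strand held an NF-κB match at bases -44 to -35 and an AP-1 match at bases -249 to -243, which 8.46% and 5.2% of windows hold. AP-1 matches also lay at bases -141 to -135 of the first Il1rn start and at bases -12 to -6 of the Il1a start. A match is a description of the letters, and a window without a match says only that those letters are not in those 300 bases.

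The libraries held 8427352 to 28587416 counts. Levels are given as CPM, library counts rescaled to a common total by the TMM method, which corrects for library composition, and fold changes as log2 with their standard error (SE). The macrophage markers Adgre1, Csf1r, Cd68, Lyz2 and others were present in every group. All 8 of that list were tested against control. At heme-albumin 400 Mertk, Fcgr1 and C1qa were called lower (log2 fold changes of -1.36, -1.12 and -3.17). At heme-albumin 200 Fcgr1 was called lower (-0.93), and with IL-4 Lyz2 and Fcgr1 were (-1.34 and -4.08). With IFN-γ Mertk and Fcgr1 were called higher (2.17 and 2.37) and Cd68 and Lyz2 lower (-0.55 and -1.45). Cd3e, Cd3d, Ncr1 and Pax5, which define T, NK and B cells, had 0 counts in every library. The other T and NK cell markers were low: the list of 7 summed to 0.547 to 0.839 CPM at heme-albumin 400, 0.106 to 0.591 CPM at heme-albumin 200, 0 to 0.206 CPM with IFN-γ, 1.53 to 2.07 CPM with IL-4 and 0 to 0.665 CPM in controls, and its 1 tested gene, Cd2, was called higher at both heme-albumin doses and with IL-4. The B cell marker Cd79b averaged 0.385 CPM with IL-4, where it was called lower, and 2.24 CPM in controls. Of 5 megakaryocyte and platelet markers Gp9 was at 0 and 3 were tested. At heme-albumin 400, Pf4 (489 CPM, against 197 CPM in controls) and Ppbp were called higher and Gp1bb lower, and at heme-albumin 200, Pf4 was called higher and Gp1bb lower. The part of such cells in the results below was not tested. In bulk RNA, fewer cells of a type and less RNA per cell cannot be told apart. Heme-albumin 400 replicate 2 and IFN-γ replicate 3 stood apart from their groups, and results that rest on them are given with and without them. A count overlapping another gene is uncertain, since the strand setting of the counting was not given: Il1a, Il1b, Il18bp and Il27 share 222, 25, 80 and 103 exon bases with a gene on the opposite strand (Gm14023, Il1bos, Numa1 and Apobr).

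Of the 10 genes, 9 passed the filter on low counts and Il6 did not. Il1f9 passed through the heme-albumin libraries and 2 IFN-γ libraries, and Il1a and Il1b mainly through IFN-γ libraries. Such genes pass because 1 group is high, so the counts that follow are descriptions of the list. At heme-albumin 400, 2 of the 9 rose against control (Il1f9 and Il18) and 0 fell, beside 14.7% of all 11883 tested genes called higher and 10.8% called lower, 25.4% in all; at an unadjusted p under 0.05 and by DESeq2 the number that fell was also 0. At heme-albumin 200, 2 rose (Il1f9 and Il18) and 1 fell (Il1rn), beside 14.0% and 9.48% of all genes, 23.4% in all. With IFN-γ, 7 rose, beside 24.1% of all genes called higher, 19.5% called lower and 43.7% called in all. The 7 were Tnf, Il1a, Il1b, Il18, Il18bp, Il10 and Il27. With IL-4, 4 fell (Tnf, Il18, Il10 and Il27), beside 14.9% of all genes called higher, 12.0% called lower and 26.8% called in all. No tested member fell with IFN-γ or rose with IL-4 in the edgeR fit, and the counts at an unadjusted p under 0.05 and by DESeq2 were likewise 0; Il1a passed with IL-4 in 1 blocked fit, given below. The median log2 fold change of the 9 genes was -0.08 at heme-albumin 400, 0.23 at heme-albumin 200, 2.41 with IFN-γ and -1.31 with IL-4, beside medians over all tested genes of 0.01, 0.02, 0.05 and -0.000353. The 4 comparisons share the control libraries.

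**Figure D1:**
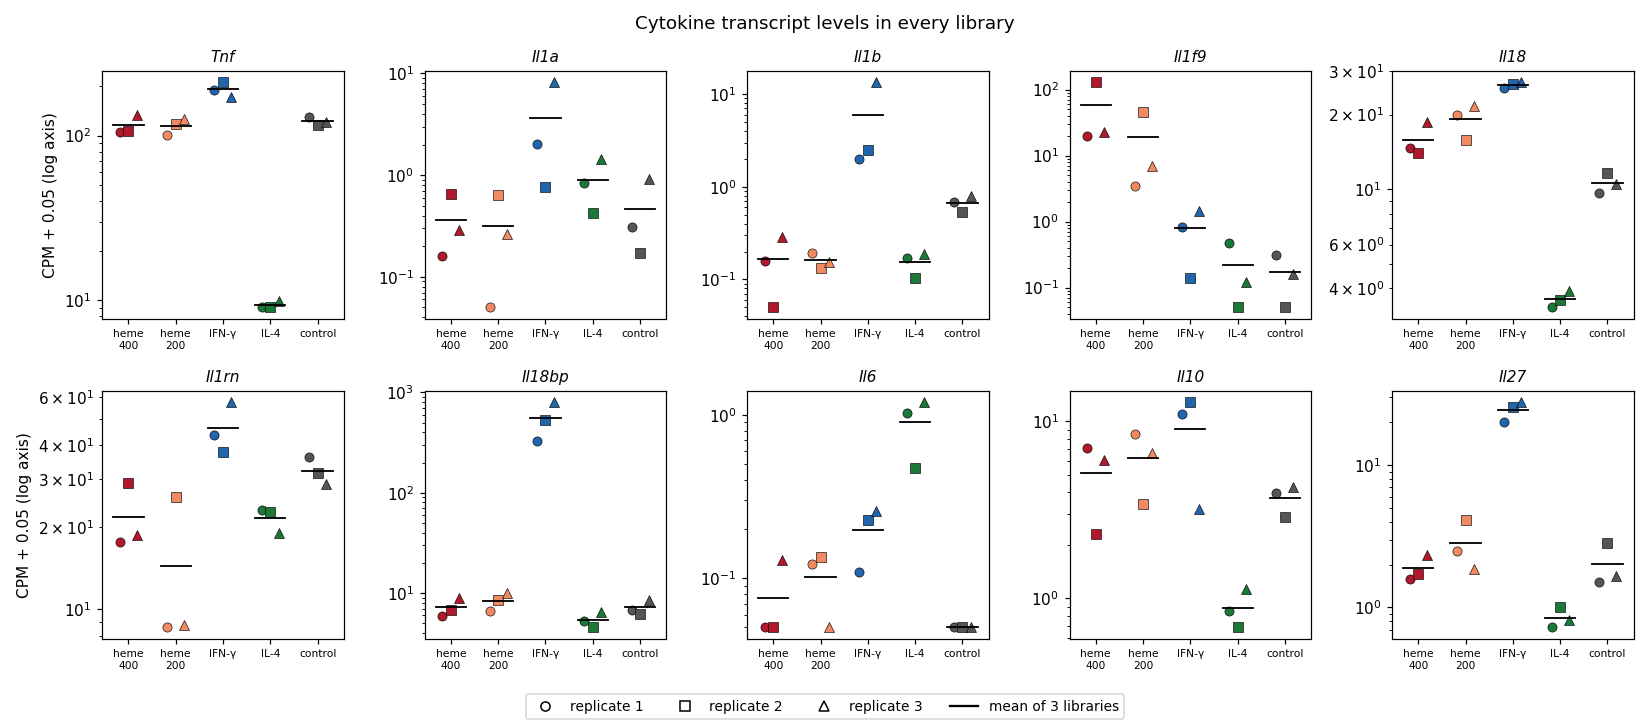
Level of each cytokine transcript in each of the 15 libraries, in CPM plus 0.05 on a log axis whose range differs between panels; groups run from heme-albumin 400 µM (heme 400) to control, symbols give the replicate number and bars the group mean. Il1f9 is high in the 6 heme-albumin libraries, Il18bp and Il27 in the 3 IFN-γ libraries, and Tnf lies near 9 CPM in the 3 IL-4 libraries.

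Tnf (ENSMUSG00000024401, chr17:35199381-35202007, minus strand, GRCm38), the TNF gene, was the agonist transcript with the highest mean level per exon length in every group: 70.4 RPKM (CPM per kilobase of exon) at heme-albumin 400, 70.1 at heme-albumin 200, 116 with IFN-γ, 5.68 with IL-4 and 74.3 in controls. It was at 105, 107 and 134 CPM in the heme-albumin 400 libraries and at 100.3, 118 and 126 CPM in the heme-albumin 200 libraries. It was at 189.6, 212 and 171 CPM with IFN-γ, at 9.00, 9.06 and 9.86 CPM with IL-4, and at 129, 116 and 121 CPM in controls. Every IL-4 library lay far below every other library, every IFN-γ library above every other library, and both heme-albumin groups overlapped the controls. Tnf fell by 3.71 ± 0.13 on the log2 scale with IL-4 against control (adjusted p = 3.71e-09, edgeR quasi-likelihood test with Benjamini-Hochberg adjustment, as for all adjusted p-values below unless another tool is named). It rose with IFN-γ by 0.65 ± 0.12 (adjusted p = 7.46e-04). With heme-albumin it did not pass against control, with a log2 fold change of -0.08 ± 0.12 at 400 µM (adjusted p = 0.676) and -0.09 at 200 µM. No left-out library and no other setting ended the calls of Tnf with IFN-γ or IL-4.

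Il1f9 (chr2:24186476-24193568, plus strand), the IL-36γ gene, was high in the heme-albumin libraries and near 0 elsewhere. It was at 19.7, 129.7 and 22.6 CPM at 400 µM and at 3.43, 46.3 and 6.79 CPM at 200 µM. It was at 0.762, 0.0889 and 1.38 CPM with IFN-γ, at 0.429, 0 and 0.0695 CPM with IL-4, and at 0.256, 0 and 0.107 CPM in controls, where it rested on 5 counts in all. Each heme-albumin library was above each library of the other 3 groups, and replicate 2 was the highest at both doses. The log2 fold change against control was 8.79 ± 1.53 at 400 µM (adjusted p = 9.94e-04) and 7.19 ± 1.57 at 200 µM (adjusted p = 0.00484). Against control, values for IFN-γ (2.41 ± 2.26, adjusted p = 0.408) and IL-4 (0.23 ± 2.93, adjusted p = 0.967) did not pass. The size of the rise depends on single libraries, while the call held in every setting. At 400 µM it was 7.36 without replicate 2 of that group, 10.24 without control replicate 1 and 8.10 without control replicate 2. At 200 µM it was 5.28 without replicate 2 of that group, 8.62 without control replicate 1 and 6.48 without control replicate 2.

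Among 10 neutrophil markers, the alarmin gene S100a8 was also highest in replicate 2 of both heme-albumin groups, at 51.9 CPM at 400 µM and 31.5 CPM at 200 µM. The neutrophil list summed to 18.1 to 55.6 CPM at 400 µM, 11.2 to 35.2 CPM at 200 µM, 2.54 to 46.1 CPM with IFN-γ, 2.33 to 51.8 CPM with IL-4 and 5.20 to 34.0 CPM in controls. S100a9, whose product pairs with that of S100a8, was at 1.68 and 1.10 CPM in those heme-albumin replicates 2, and at 20.2 CPM in IL-4 replicate 1, where Il1f9 was at 0.429 CPM. No neutrophil marker of the 5 tested was called in edgeR at either dose. At 400 µM Mpo (log2 fold change 3.70 ± 1.32, adjusted p = 0.0547) and S100a8 (3.03 ± 1.15, 0.0689) lay close to the threshold. S100a9, Ngp and Ltf were at -0.09, -0.87 and -1.43 there. At 200 µM Mpo was at 2.76 (adjusted p = 0.164) and S100a8 at 2.21 (0.179), and S100a9, Ngp and Ltf were again below 0. The part of such cells in the Il1f9 values was not tested.

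Il18 (chr9:50554827-50581840, plus strand), the gene of the caspase-1 substrate IL-18, rose with heme-albumin and IFN-γ and fell with IL-4. It was at 14.6, 13.9 and 18.6 CPM at 400 µM, at 20.0, 15.8 and 21.6 CPM at 200 µM, at 25.5, 26.5 and 27.0 CPM with IFN-γ, at 3.31, 3.55 and 3.86 CPM with IL-4 and at 9.59, 11.6 and 10.4 CPM in controls. None of the 4 treated groups overlapped the controls. The log2 fold change against control was 0.58 ± 0.15 at 400 µM (adjusted p = 0.0107), 0.86 ± 0.15 at 200 µM (adjusted p = 9.11e-04), 1.32 ± 0.14 with IFN-γ (adjusted p = 1.08e-05) and -1.56 ± 0.15 with IL-4 (adjusted p = 7.97e-06). The call at 400 µM was lost without control replicate 1 (adjusted p = 0.0509) and without heme-albumin 400 replicate 3 (0.0602). In the order of means, IFN-γ stood above heme-albumin 200, and the difference of heme-albumin 200 from IFN-γ was -0.46 ± 0.14 (adjusted p = 0.0171, 0.0810 without heme-albumin 200 replicate 2 and 0.0770 with only these 6 libraries and the replicate number as a block).

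Il1b (chr2:129364570-129371139, minus strand), the IL-1β gene, was close to silent outside IFN-γ. It was at 0.109, 0 and 0.236 CPM at heme-albumin 400, at 0.143, 0.0845 and 0.106 CPM at heme-albumin 200, at 1.93, 2.45 and 13.4 CPM with IFN-γ, at 0.122, 0.0530 and 0.139 CPM with IL-4 and at 0.640, 0.484 and 0.752 CPM in controls. Every IFN-γ library was above every control, and every heme-albumin and IL-4 library was below every control. The rise with IFN-γ was 3.24 ± 0.69 (adjusted p = 0.00209), and 1.83 without IFN-γ replicate 3 (adjusted p = 0.00206). Against control the values of -2.16 ± 1.12 at 400 µM (adjusted p = 0.179), -2.35 ± 1.11 at 200 µM (0.145) and -2.41 ± 0.97 with IL-4 (0.0857) did not pass. With the replicate number as a block they were -2.58 (adjusted p = 0.0303), -2.47 (0.0347) and -2.82 (0.00998), and without IFN-γ replicate 3 and no block their adjusted p-values were 0.0136, 0.00856 and 0.00259. DESeq2 called the fall with IL-4 (adjusted p = 0.0263), and so did the edgeR fit without IFN-γ replicate 1 (0.0449). These 3 groups hold few counts, so the size of a fall is poorly measured at this depth.

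Il1a (chr2:129299610-129309972, minus strand), the IL-1α gene, was likewise low. It was at 0.109, 0.599 and 0.236 CPM at heme-albumin 400, at 0, 0.591 and 0.212 CPM at heme-albumin 200, at 1.99, 0.712 and 8.19 CPM with IFN-γ, at 0.796, 0.371 and 1.39 CPM with IL-4 and at 0.256, 0.121 and 0.860 CPM in controls. IFN-γ replicate 3 was the highest library, and IFN-γ replicate 2 lay inside the control range. The rise with IFN-γ was 3.28 ± 0.98 (adjusted p = 0.0163), and 1.87 without IFN-γ replicate 3, where it did not pass (adjusted p = 0.0983). The call was also lost without control replicate 1 (0.0662) or 2 (0.0724) and with only the 6 libraries of both groups (0.0657), and without control replicate 3 the value was 4.19. Values of -0.24 ± 1.37 at 400 µM and 1.28 ± 1.05 with IL-4 did not pass against control (adjusted p = 0.922 and 0.407). With IL-4, Il1a was higher than control in 3 of 3 pairs of the same replicate number, and the fit of only those 6 libraries with the replicate number as a block called it (1.10, adjusted p = 0.0428).

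**Figure D2:**
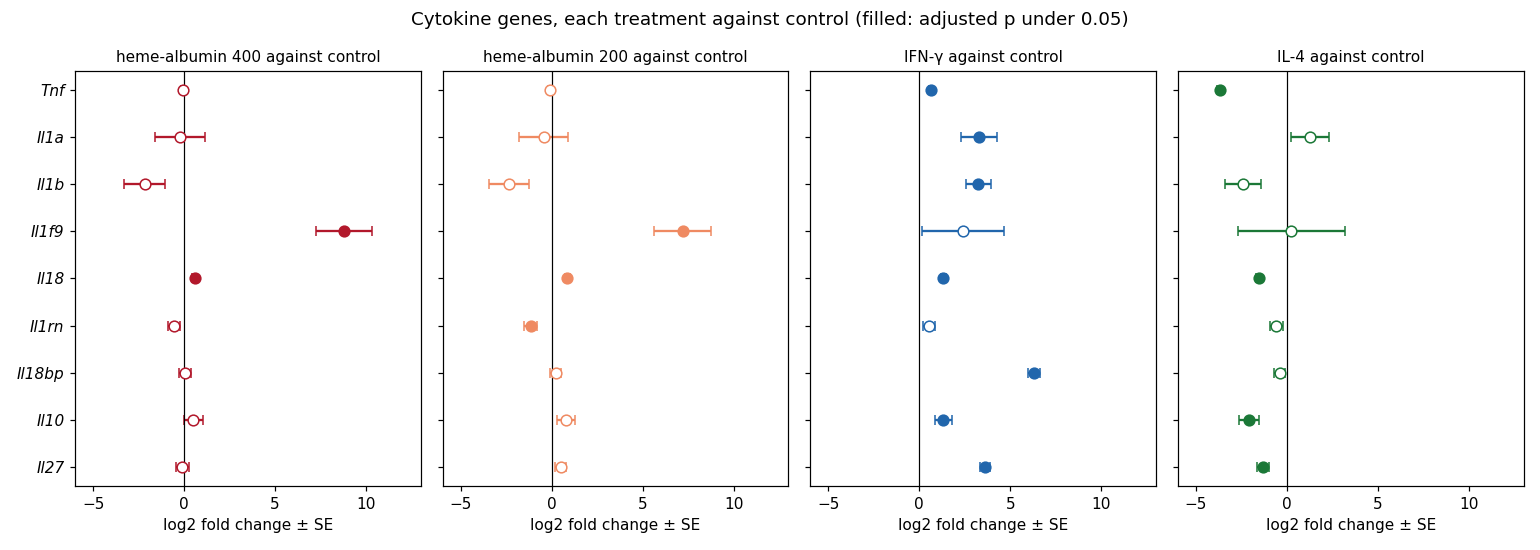
Log2 fold change of the 9 tested cytokine genes in each treatment against control, with bars of 1 SE; filled circles have an adjusted p under 0.05. Il1f9 has the largest value at both heme-albumin doses (8.79 and 7.19), Il18bp the largest with IFN-γ (6.28) and Tnf the lowest with IL-4 (-3.71).

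The IL-1 receptor antagonist gene Il1rn (chr2:24336853-24351494, plus strand) was called in 1 of the 4 comparisons with control. It was at 17.6, 28.9 and 18.7 CPM at heme-albumin 400, at 8.51, 25.7 and 8.70 CPM at heme-albumin 200, at 43.7, 37.6 and 57.5 CPM with IFN-γ, at 23.1, 22.7 and 18.9 CPM with IL-4 and at 36.1, 31.6 and 28.8 CPM in controls. Every heme-albumin 200 and IL-4 library was below every control, every IFN-γ library above every control, and replicate 2 at 400 µM reached the lowest control. Il1rn fell by 1.17 ± 0.35 on the log2 scale at 200 µM (adjusted p = 0.0274). Without replicate 2 of that group it fell by 1.9, and the call was lost without replicate 1 (adjusted p = 0.103) or 3 (0.101) of that group and without control replicate 1 (0.0857) or 2 (0.0547). At 400 µM the value was -0.57 ± 0.34 (adjusted p = 0.246), with IFN-γ 0.52 ± 0.33 (0.223) and with IL-4 -0.58; the IL-4 value passed with only the 6 libraries of both groups, without a block (adjusted p = 0.00258) and with the replicate number as a block (2.74e-05). Without heme-albumin 200 replicate 2, the values with IFN-γ and IL-4 both passed (adjusted p = 0.0444 and 0.0441).

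Il18bp (chr7:102014885-102018690, minus strand), the gene of the IL-18 antagonist, was at 329, 527 and 799 CPM with IFN-γ, against 6.72, 6.17 and 8.60 CPM in controls. It was at 5.91, 6.71 and 8.96 CPM at heme-albumin 400, at 6.58, 8.53 and 9.97 CPM at heme-albumin 200 and at 5.20, 4.50 and 6.39 CPM with IL-4. The 3 IFN-γ libraries stood far above the other 12. Among those 12 the groups overlapped, except that every heme-albumin 200 library was above every IL-4 library. The rise with IFN-γ was 6.28 ± 0.33 on the log2 scale (adjusted p = 1.14e-08), and the call held in every setting. Values at 400 µM (0.04 ± 0.31, adjusted p = 0.948) and with IL-4 (-0.39 ± 0.30, adjusted p = 0.374) did not pass, and with IL-4 the blocked fit of only the 6 libraries compared gave -0.43 (adjusted p = 0.0160).

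Levels of different genes were set side by side per exon length, as RPKM. The ratio of Il18bp to Il18 RPKM was 7.09 (4.39 to 10.1 over 3 libraries) with IFN-γ and 0.234 on average in controls, with 0.156 at heme-albumin 400, 0.151 at heme-albumin 200 and 0.511 with IL-4. Only with IFN-γ did the inhibitor transcript exceed the agonist transcript in RPKM, in 3 of 3 libraries. The lengths were those of all annotated exons of a gene, 3026 bases for Il18bp and 1031 for Il18. In CPM, Il18bp was above Il18 with IL-4 too (5.20, 4.50 and 6.39 CPM, against 3.31, 3.55 and 3.86 CPM). The ratio of Il1rn to the sum of Il1a and Il1b RPKM was 2.99 with IFN-γ, against 12.8 in controls, with 19.8 at heme-albumin 400, 14.5 at heme-albumin 200 and 10.8 with IL-4. Its denominator was small: Il1a had 9 and Il1b 4 counts in all at each heme-albumin dose, and 14 and 25 in controls. By library the ratio ran from 13.9 to 28.2 at heme-albumin 400 and from 9.64 to 20.5 at heme-albumin 200. It ran from 4.40 to 19.0 with IL-4 and from 6.27 to 18.1 in controls, so these groups overlapped. In IFN-γ replicate 3 it was 0.929, the lowest of the 15 libraries. Both ratios are descriptions, with no test.

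**Figure D3:**
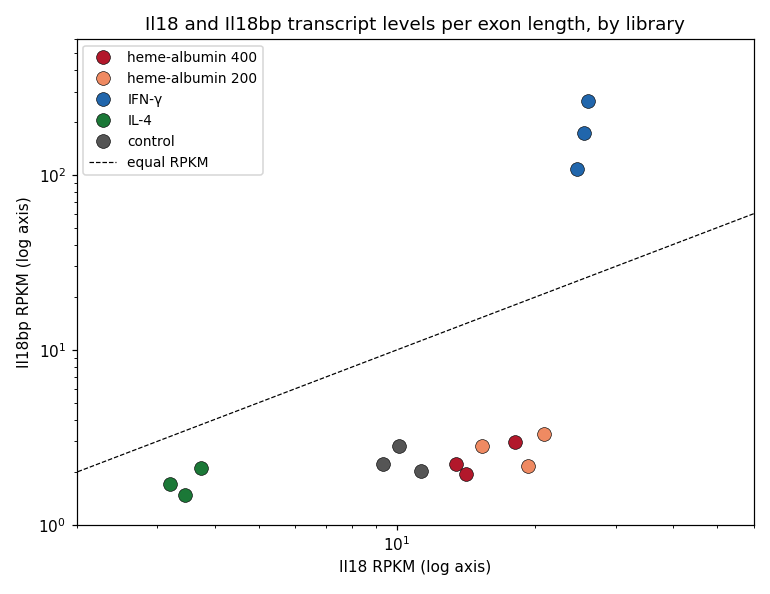
Il18bp against Il18 RPKM in each library, both on log axes, coloured by group. The dashed line marks equal RPKM. The 3 IFN-γ libraries lie above the line, at an Il18bp to Il18 ratio of 4.39 to 10.1, and the other 12 libraries lie below it.

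Il10 (chr1:131019845-131024974, plus strand) fell with IL-4. It was at 0.796, 0.636 and 1.08 CPM with IL-4, against 3.90, 2.84 and 4.19 CPM in controls, a log2 fold change of -2.07 ± 0.56 (adjusted p = 0.0141, and 0.0537 without IL-4 replicate 2). It was at 7.01, 2.28 and 5.97 CPM at heme-albumin 400, at 8.44, 3.38 and 6.58 CPM at heme-albumin 200 and at 11.0, 12.8 and 3.17 CPM with IFN-γ. Replicate 2 was the lowest library of both heme-albumin groups and replicate 3 the lowest with IFN-γ, and all 3 of these groups overlapped the controls. The value of 1.32 ± 0.49 with IFN-γ passed (adjusted p = 0.0413) but was lost in 10 of the 15 fits that left out 1 library, with an adjusted p of 0.0505 to 0.155. Those libraries were each of the 3 controls, each of the 3 IL-4 libraries, IFN-γ replicates 1 and 2, and replicate 3 of each heme-albumin group. Fits of only the 6 libraries compared gave adjusted p-values of 0.0953, and of 0.160 with the replicate number as a block. At 200 µM that blocked fit gave a rise of 0.70 (adjusted p = 0.0264), where the fit of all libraries made no call.

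Il27 (chr7:126589010-126594941, minus strand), the gene of the p28 chain of IL-27, rose with IFN-γ and fell with IL-4. It was at 20.0, 25.3 and 27.6 CPM with IFN-γ, at 0.673, 0.953 and 0.764 CPM with IL-4 and at 1.47, 2.78 and 1.61 CPM in controls. It was at 1.53, 1.68 and 2.28 CPM at heme-albumin 400 and at 2.43, 4.05 and 1.80 CPM at heme-albumin 200, both overlapping the controls. The log2 fold change was 3.61 ± 0.30 with IFN-γ (adjusted p = 7.28e-07) and -1.31 ± 0.34 with IL-4 (adjusted p = 0.0109). Without control replicate 2 the IL-4 value was -0.96 and did not pass (adjusted p = 0.0757). Ebi3, the gene of the other chain of IL-27, averaged 89.9 CPM with IFN-γ, 27.6 CPM with IL-4 and 68.5 CPM in controls, and fell by 1.31 ± 0.17 on the log2 scale with IL-4 (adjusted p = 8.08e-05).

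Il6 (chr5:30013114-30019981, plus strand) was at the edge of detection. It had 16, 8 and 33 counts in the IL-4 libraries, 1, 4 and 3 with IFN-γ, 0, 0 and 1 at heme-albumin 400, 1, 1 and 0 at heme-albumin 200 and 0 in each control. Against a floor of 3 counts over the control group, it was at least 12.3-fold higher with IL-4 and at least 2.04-fold higher with IFN-γ; such floors cover counting error only. When no filter was applied, so that 16436 genes were tested, edgeR gave Il6 an adjusted p of 6.31e-04 with IL-4 and 0.0386 with IFN-γ against control. At its highest, in the IL-4 group, it averaged 0.850 ± 0.378 CPM (SD, n = 3). It was the 1 cytokine of the 10 with its highest mean in the IL-4 libraries.

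The order of group means puts these patterns side by side. IFN-γ had the highest mean for 8 genes, heme-albumin 400 for Il1f9 and IL-4 for Il6. IFN-γ did not pass against the next group for Il1a (IL-4, adjusted p = 0.0567), Il1rn (control, 0.223) and Il10 (heme-albumin 200, 0.366). For Il1f9, heme-albumin 400 did not pass against heme-albumin 200 (0.390), and Il6 was not tested. For Tnf, IFN-γ stood above control, while control, heme-albumin 400 and heme-albumin 200 did not differ beyond their spread, and IL-4 stood below heme-albumin 200 (heme-albumin 200 against IL-4, 3.62 ± 0.13, adjusted p = 1.22e-09). For Il27, IFN-γ stood above heme-albumin 200, the middle 3 groups did not pass against their neighbours, and heme-albumin 400 stood above IL-4 (1.21 ± 0.35, adjusted p = 0.0144, and 0.0805 without heme-albumin 400 replicate 3).

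The 6 direct comparisons between treatments made 33 calls in 54 tests of the 9 genes, 61.1%, beside 34.5% of all gene tests. Heme-albumin 400 against heme-albumin 200 gave 0 calls among the 9 genes and 0 (0%) among all 11883 genes in edgeR; at an unadjusted p under 0.05 the counts were 0 and 1796, and DESeq2 called 0 and 13. Il1f9 averaged 57.3 ± 62.7 CPM at 400 µM and 18.8 ± 23.8 CPM at 200 µM (SD, n = 3 each), higher at 400 µM in 3 of 3 pairs of the same replicate number. Its difference was 1.60 ± 0.88 (adjusted p = 0.390), and in the fit of only those 6 libraries with the replicate number as a block it was 1.82 (adjusted p = 0.00290). With all 15 libraries and the block it was 1.74 and did not pass (adjusted p = 0.269). Single libraries set its size: it was 0.17 without heme-albumin 400 replicate 2 (adjusted p = 0.997) and 3.51 without heme-albumin 200 replicate 2 (adjusted p = 0.318). Il1rn differed by 0.60 ± 0.35 and Il18 by -0.28 ± 0.14 between the doses, which does not show that the doses act alike.

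Against IFN-γ, heme-albumin 400 had 1 member higher (Il1f9) and 7 lower, beside 20.6% of all genes called higher, 22.3% called lower and 42.9% in all. Heme-albumin 200 also had 1 higher and 7 lower, beside 20.4%, 21.7% and 42.1%. Tnf was lower at heme-albumin 400 than with IFN-γ by a log2 fold change of -0.72 ± 0.12, Il18bp by -6.24 ± 0.33 and Il27 by -3.70 ± 0.31. Il10 was not called, at -0.82 ± 0.48, and was called without IFN-γ replicate 3 (adjusted p = 0.0214). The lower Il1a at heme-albumin 400 (-3.52 ± 1.06, adjusted p = 0.0160) was not called without IFN-γ replicate 3 (0.0861), heme-albumin 400 replicate 1 (0.0565) or 3 (0.0626). Without IFN-γ replicate 3 it was -2.10, and without heme-albumin 400 replicate 2 it was -4.23. At heme-albumin 200 it was -3.74, and was -2.32 and not called without IFN-γ replicate 3 (0.0588). Fits of only the 6 libraries compared did not call Il1a at 400 µM (adjusted p = 0.0548, and 0.0760 with the replicate number as a block) or at 200 µM (0.0592, and 0.0971 with the block). The lower Il1rn at heme-albumin 400 (-1.09 ± 0.34, adjusted p = 0.0203) was not called without IFN-γ replicate 3 (0.0550), heme-albumin 400 replicate 1 (0.0713) or 3 (0.0740). In the blocked fits of only the 6 libraries compared, Tnf at heme-albumin 400 had an adjusted p of 0.0518 and Il1f9 at heme-albumin 200 of 0.0926. Against IL-4, heme-albumin 400 had 5 members higher (Tnf, Il1f9, Il18, Il10 and Il27), beside 20.5% of all genes called higher, 19.7% called lower and 40.2% in all. Heme-albumin 200 had 5 higher, beside 16.8%, 14.5% and 31.4%. Tnf differed by 3.63 ± 0.13 and Il10 by 2.58 ± 0.56 between heme-albumin 400 and IL-4. IFN-γ had 7 members higher than IL-4, beside 26.3% of all genes called higher, 24.3% called lower and 50.6% in all, and Il1a (2.00 ± 0.82, adjusted p = 0.0567) and Il1f9 did not pass. Il1a passed with the replicate number as a block (adjusted p = 0.0383) and without IFN-γ replicate 1 (0.0440) or 2 (0.0146), and the call of Il1rn was lost without IL-4 replicate 3 (0.0542). Against IL-4, heme-albumin 200 also differed in Il1rn without its own replicate 2 (-1.32, adjusted p = 0.00122) and in Il18bp with the replicate number as a block (0.64, adjusted p = 0.0191). These comparisons reuse the same libraries, so their counts are not independent.

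**Figure D4:**
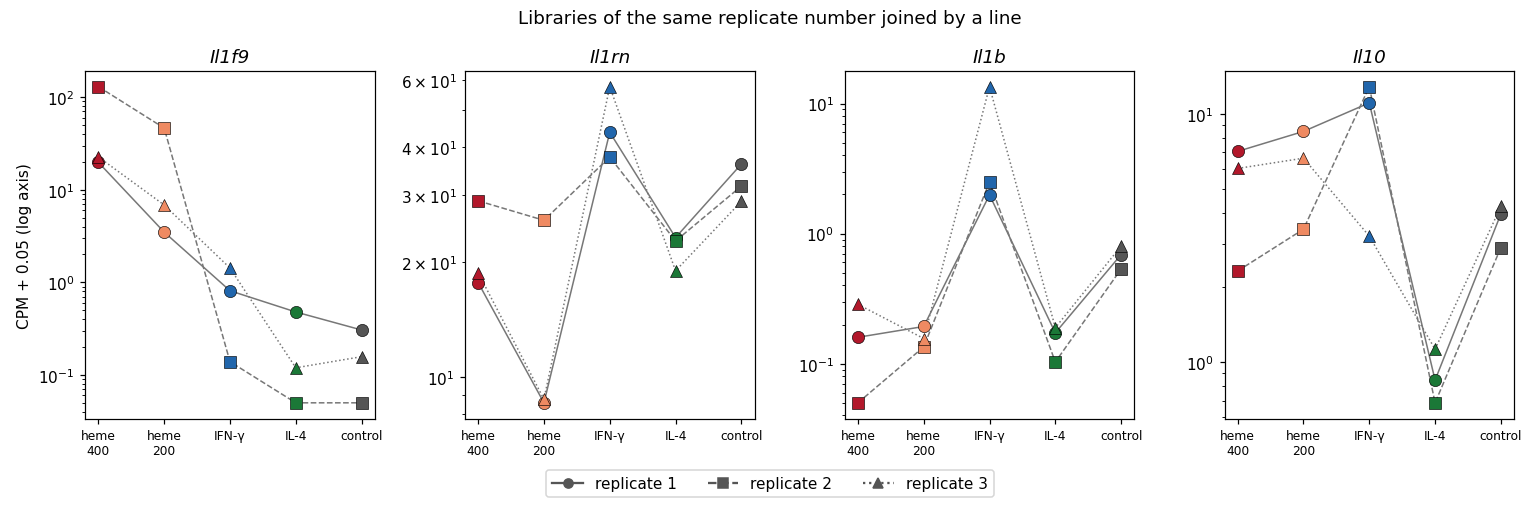
Il1f9, Il1rn, Il1b and Il10 in each library, in CPM plus 0.05 on a log axis, with libraries of the same replicate number joined by a line. Replicate 2 is the highest heme-albumin library for Il1f9 and Il1rn and the lowest for Il10 at both doses, and replicate 3 is the highest IFN-γ library for Il1b and the lowest for Il10.

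The table's column names carry 3 dates, 1 for each replicate number in all 5 groups; the sources used here do not say what such a date stands for. At both heme-albumin doses replicate 2 had the highest Il1f9 and Il1rn and the lowest Il10, while among controls replicate 2 had the second Il1rn level (31.6 CPM) and no Il1f9 count. With the replicate number as a block, the Il1f9 rise was 8.65 at 400 µM (adjusted p = 4.78e-04) and 6.90 at 200 µM (adjusted p = 0.00320). IFN-γ replicate 3 had 8.19 CPM of Il1a, 13.4 CPM of Il1b and 3.17 CPM of Il10, while its Tnf (171 CPM) was the lowest of the 3 IFN-γ libraries. S100a8 was at 36.2 CPM in it and at 10.1 and 1.56 CPM in IFN-γ replicates 1 and 2. The part of neutrophils in these values was not tested.

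Genes around these cytokines were described by lists. Of 78 list values taken by the naming rule 53 kept their call in every setting and 25 lost it in at least 1. Beside the list counts, 14.7% of all tested genes were called higher and 10.8% lower at heme-albumin 400. The shares were 14.0% and 9.48% at heme-albumin 200, 24.1% and 19.5% with IFN-γ, and 14.9% and 12.0% with IL-4. They apply to every list count below, and no list was tested against them. Receptors of the IL-1 family were a list of 8, of which 7 passed the filter. Il18rap, the accessory chain of the IL-18 receptor, rose with heme-albumin to 43.8, 31.5 and 37.1 CPM at 400 µM and to 23.7, 31.7 and 26.4 CPM at 200 µM, against 4.09, 6.96 and 2.90 CPM in controls. The log2 fold change was 2.98 ± 0.41 (adjusted p = 1.73e-04) and 2.52 ± 0.41 (adjusted p = 6.50e-04). Il18r1, the chain that binds IL-18, had 2 counts in all at 400 µM and 1 in controls. At each dose 2 of the 7 rose, with a median of 0.64 at 400 µM and 0.07 at 200 µM; the other was Il1r1, the signalling IL-1 receptor.

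Il1r1 averaged 0.964 ± 0.246 CPM at 400 µM and 1.01 ± 1.17 CPM at 200 µM, against 0.0818 ± 0.0920 CPM in controls (SD, n = 3 each), where it had 4 counts in all. It lies outside the naming rule at these doses and was chosen after its values were seen. Its rise at 400 µM (3.20 ± 0.90, adjusted p = 0.0190) did not pass without heme-albumin 400 replicate 2 (adjusted p = 0.0567), control replicate 1 (0.0694) or control replicate 3 (0.0562). Its rise at 200 µM (3.32 ± 0.88, adjusted p = 0.0149) was 1.76 without heme-albumin 200 replicate 2 (0.136) and was also lost without control replicate 1 (0.0666). Without control replicate 2 the values were 4.30 at 400 µM and 4.40 at 200 µM.

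With IL-4, 3 receptors rose: Il1rl2, Il1r1 and Il1rl1, with a list median of 0.36. Il1rl2, the receptor of IL-36γ, was at 58.1, 51.4 and 50.5 CPM with IL-4, against 0.767, 0.363 and 1.07 CPM in controls (6.26 ± 0.35, adjusted p = 9.43e-08). It averaged 1.13 ± 0.783 CPM at heme-albumin 400 (0.64 ± 0.46 against control, adjusted p = 0.326), so Il1f9 and the transcript of its receptor were highest in different groups. Il1r1 was at 5.14, 3.65 and 4.17 CPM with IL-4 (5.39 ± 0.76, adjusted p = 1.59e-04, and 6.47 without control replicate 2). Il1rl1, the receptor of IL-33, was at 40.6, 22.3 and 33.3 CPM with IL-4, against 10.5, 9.62 and 9.78 CPM in controls (1.68 ± 0.38, adjusted p = 0.00453).

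With IFN-γ, 1 receptor rose and 2 fell, with a list median of -0.15. Il1rl1 was at 0.234, 0.311 and 0.206 CPM with IFN-γ (-5.23 ± 0.56, adjusted p = 9.41e-06), and Il1rap, the shared accessory chain, fell by 0.98 ± 0.16 on the log2 scale (adjusted p = 3.28e-04). Il1r2, a decoy receptor for IL-1, was at 2.87, 3.07 and 0.688 CPM with IFN-γ, against 0.640, 0.121 and 0.322 CPM in controls (2.60 ± 0.59, adjusted p = 0.00325, and 3.43 without control replicate 1). IFN-γ replicate 3, the library with the highest Il1b, had the lowest Il1r2 of its group. The other 5 IL-1 family ligands in the table (Il1f5, Il1f6, Il1f8, Il1f10 and Il33) had at most 3 counts in any group and were not tested.

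**Figure D5:**
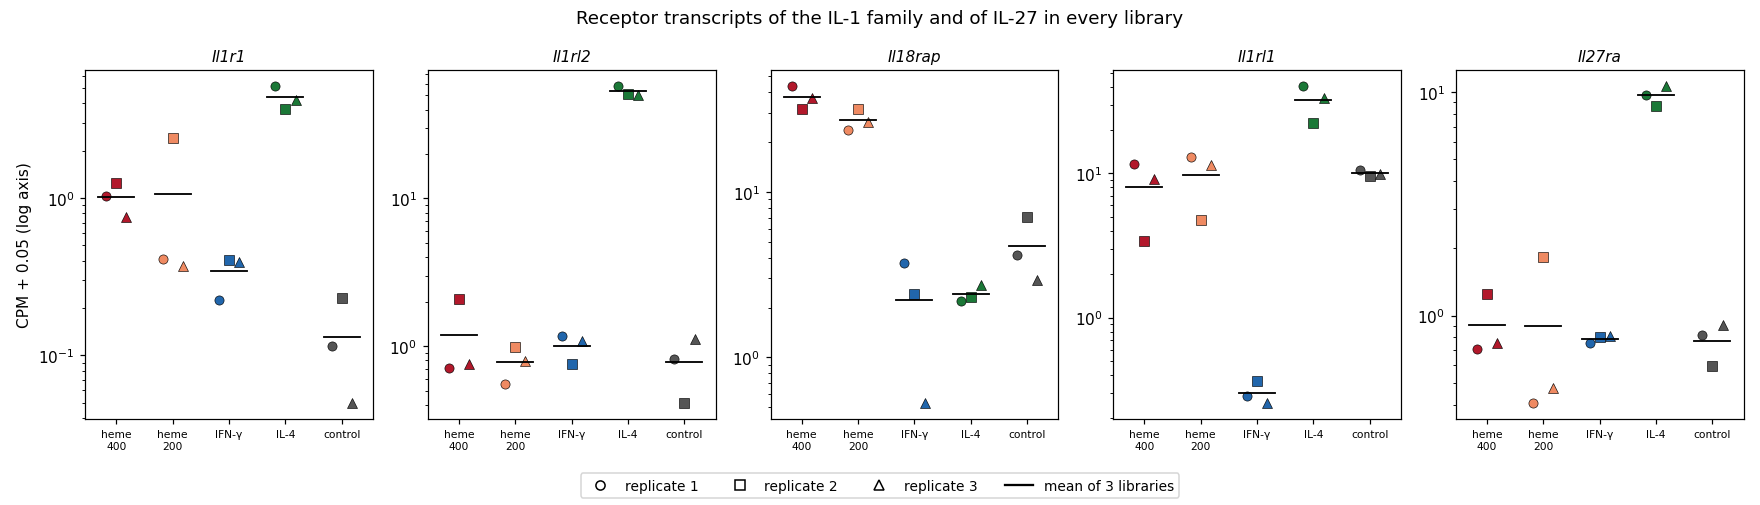
Il1r1, Il1rl2, Il18rap, Il1rl1 and Il27ra in each library, in CPM plus 0.05 on a log axis whose range differs between panels; symbols give the replicate number and bars the group mean. Il18rap is highest in the 6 heme-albumin libraries, Il1rl2, Il1r1, Il1rl1 and Il27ra in the 3 IL-4 libraries, and Il1rl1 is lowest with IFN-γ.

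Genes that act on TNF at the cell surface were a list of 5. Of the 4 tested, 3 rose with IFN-γ (median 1.10), 2 rose at heme-albumin 200 (median 0.57), and 1 fell with IL-4 (median 0.11). Tnfrsf1a, the widely expressed TNF receptor, rose with IFN-γ by 0.77 ± 0.14 (adjusted p = 7.40e-04) and at heme-albumin 200 by 0.65 ± 0.14 (adjusted p = 0.00484). Rhbdf2, which carries the TNF sheddase to the surface, rose with IFN-γ by 1.42 ± 0.14 (adjusted p = 3.62e-06); its rise at heme-albumin 200 (0.49 ± 0.14, adjusted p = 0.0200) was lost without heme-albumin 200 replicate 2 (0.0613) and control replicate 1 (0.0914) or 2 (0.0881). Adam17, the sheddase that frees TNF, fell by 1.24 ± 0.20 on the log2 scale with IL-4 (adjusted p = 5.18e-04), where Tnf fell too; its exons overlap those of Iah1 on the opposite strand.

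For the partners and receptors of IL-6, IL-10 and IL-27, 6 were tested. With IL-4, 2 rose and 3 fell, with a median of -0.22. Il27ra, the IL-27 receptor, was at 9.67, 8.63 and 10.6 CPM with IL-4, against 0.767, 0.544 and 0.860 CPM in controls (3.75 ± 0.42, adjusted p = 2.29e-05). Il6st, the shared signalling chain of the IL-6 and IL-27 receptors, rose with IL-4 by 1.15 ± 0.16 (adjusted p = 1.13e-04). Il10ra, the IL-10 receptor chain, rose with IFN-γ by 1.24 ± 0.18 (adjusted p = 1.23e-04), 1 of 2 called of the 6 (median 0.08). At each heme-albumin dose 1 of the 6 fell, with medians of -0.14 at 400 µM and 0.03 at 200 µM; this was Il10rb, a receptor chain shared by IL-10 and related cytokines, whose exons overlap those of Gm21970, and whose call was lost without heme-albumin 200 replicate 2 at 200 µM (adjusted p = 0.0548) and without any 1 of the 6 libraries compared at 400 µM (0.0510 to 0.0785).

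Maturation genes of IL-1β and IL-18 were 6. With IFN-γ 5 rose (median 0.80), with IL-4 1 rose and 2 fell (median -0.08), at heme-albumin 400 2 rose (median -0.15) and at heme-albumin 200 1 rose and 1 fell (median 0.01). Casp1, the caspase that cuts pro-IL-1β and pro-IL-18, was at 121, 145 and 138 CPM at heme-albumin 400, at 128, 112 and 131 CPM at heme-albumin 200, at 370.1, 363 and 376 CPM with IFN-γ, and at 89.4, 102 and 84.4 CPM in controls. Its log2 fold change was 0.55 ± 0.10 at 400 µM (adjusted p = 0.00125), 0.43 ± 0.10 at 200 µM (0.00730, and 0.0530 without control replicate 3) and 2.01 ± 0.10 with IFN-γ (8.52e-09). Casp4, the caspase of the non-canonical inflammasome, rose with IFN-γ by 2.48 ± 0.19 (adjusted p = 3.23e-07), and Gsdmd, the pore former through which IL-1β leaves, by 1.10 ± 0.20 (adjusted p = 6.84e-04). Nlrp3, the inflammasome sensor, was at 24.5, 33.2 and 30.3 CPM with IL-4, against 130.4, 127 and 135 CPM in controls (-2.15 ± 0.13, adjusted p = 1.23e-07).

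Signal carriers below the receptors were 14. With IFN-γ 7 rose (median 0.22), with IL-4 1 rose and 4 fell (median -0.12), at heme-albumin 400 1 rose and 3 fell (median -0.12) and at heme-albumin 200 3 rose and 3 fell (median -0.07). Irak2, a kinase of the IL-1 receptor complex, rose with IFN-γ by 0.92 ± 0.21 (adjusted p = 0.00310) and fell by 1.17 ± 0.21 with IL-4 (adjusted p = 9.95e-04). Myd88, the adaptor of the IL-1 receptor family, fell by 0.65 ± 0.14 with IL-4 (adjusted p = 0.00428). It shares 290 exon bases with Acaa1a on the opposite strand, so its count is uncertain. At heme-albumin 400 Myd88 (-0.46 ± 0.14, adjusted p = 0.0335) and Irak2 (-0.64 ± 0.21, 0.0409) were among the 3 called lower. The Myd88 call there was lost in 6 of 23 other settings. Irak2 lies outside the naming rule at that dose and was added after its values were seen. Ikbkg, the regulatory subunit of the NF-κB kinase, averaged 166 ± 42.8 CPM at heme-albumin 400 and 58.7 ± 1.72 CPM in controls (SD, n = 3 each; 1.50 ± 0.27, adjusted p = 0.00124). Ikbkg shares 418 exon bases with G6pdx on the opposite strand, so its count is uncertain.

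Of 11 genes of the NF-κB family and its inhibitors, 5 rose with IFN-γ (median 0.40), 4 fell with IL-4 (median -0.61), and 1 rose and 1 fell at heme-albumin 200 (median 0.05). Nfkbiz, a nuclear cofactor needed for part of the NF-κB response, rose with IFN-γ by 1.33 ± 0.19 (adjusted p = 1.27e-04) and fell by 2.85 ± 0.22 with IL-4 (adjusted p = 1.23e-06), to 1.87 CPM, against 13.5 CPM in controls. Relb, an NF-κB subunit, fell by 1.68 ± 0.32 with IL-4 (adjusted p = 0.00155).

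The 8 factors that set the decay of cytokine mRNA were also measured. At heme-albumin 400 1 rose and 2 fell (median -0.15), at heme-albumin 200 2 rose and 1 fell (median -0.10), with IFN-γ 2 rose and 1 fell (median 0.09) and with IL-4 1 rose (median 0.02). Zfp36l1, which marks AU-rich mRNA for decay, was at 12.0, 4.08 and 12.7 CPM at heme-albumin 400, at 22.2, 11.5 and 26.6 CPM at heme-albumin 200, and at 69.6, 71.6 and 70.9 CPM in controls. It fell by 2.86 ± 0.35 at 400 µM (adjusted p = 6.30e-05) and by 1.82 ± 0.33 at 200 µM (adjusted p = 0.00135), and its lowest library at both doses was replicate 2, the library with the highest Il1f9. Its exons overlap those of Gm26669 on the opposite strand. Zc3h12a, the RNase Regnase-1, rose in all 4 treatments: at heme-albumin 400 (0.99 ± 0.32, adjusted p = 0.0377), at heme-albumin 200 (1.33 ± 0.32, adjusted p = 0.00881), with IFN-γ (1.39 ± 0.32, 0.00359) and with IL-4 (1.36 ± 0.32, 0.00609). The call at 400 µM was lost without control replicate 1 (0.118), 2 (0.115) or 3 (0.0564), heme-albumin 400 replicate 2 (0.0761) or 3 (0.121), or heme-albumin 200 replicate 3 (0.0510).

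The genes whose log2 CPM was most alike to each cytokine over the 15 libraries were listed by Pearson's r, as a description of libraries that share groups and dates. Tnf was most like Nlrp3 (r = 0.983) and Il27 most like Irf8, a macrophage transcription factor (0.985). Il18bp was most like Pfkfb3 (0.991), Gbp10 (0.990) and Gbp11 (0.990), the last pair being IFN-γ inducible guanylate-binding proteins. Il1f9 was most like Srxn1 (0.975) and Txnrd1 (0.969), enzymes of thiol redox defence, and Il18 most like Sfxn5 (0.977). Il10 was most like Id1 (0.958), a repressor of transcription factors, Il1b most like Tor1aip1 (0.965) and Il1a most like Kansl3 (0.910). Il1rn was least well matched, with Rnf214 at 0.891.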

How the data were processed

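RNA of 15 macrophage libraries was sequenced from stranded libraries, per the labels. The deposited values are raw counts per gene, which the authors made with STAR 2.7.0e, SAMtools 1.9 and featureCounts on GRCm38.p5, per the submitters' processing notes; neither the annotation nor the strand setting is stated there. Gene symbols and exon lengths came from GENCODE M21, which matched 25664 of 25700 identifiers. Counts were filtered with filterByExpr (about 0.698 CPM, 11883 genes kept), scaled by TMM and fitted in edgeR 4.0.16 (R 4.3.3) with its quasi-likelihood test, all 15 libraries in 1 fit without a block, and 10 comparisons with Benjamini-Hochberg adjustment over all genes tested and a threshold of 0.05. Levels and figures used Python 3.11.15, pandas 2.3.3, numpy 2.4.6 and matplotlib 3.10.9. The total counts of 8427352 to 28587416 per library set the precision, and low genes rest on few counts.

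A simulation of all 15 libraries with 11883 genes drew each gene at its mean over all libraries. Changes were put into the heme-albumin 400 libraries only. Genes near 0 in controls and high elsewhere, such as Il1f9, were so drawn above their control level, and the shares found do not describe them. Against control, the test found 11 of the 50 genes given a 1.5-fold change. For a 2-fold change it found 29 of 50, for 4-fold 42 of 50 and for 8-fold 49 of 50. Of its 136 calls, 5 were false. In the blocked fits the replicate numbers were taken to pair the libraries, since the table's column names give each number 1 date in all groups. The main fit did not use this pairing, and some calls differ with the block, as given for Il1b above. Deviations from the group mean had a median correlation of 0.144 over 30 pairs of the same number (range -0.168 to 0.474) and -0.0688 over 60 other pairs. Alternatives were DESeq2 1.42.0, other filters, the replicate block, fits of only the 6 libraries compared and each library left out.

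The cytokine genes, gene lists and motifs were chosen with earlier results of these data known. From each list and comparison with control, up to 3 called genes with a mean of at least 1 CPM were taken, by smallest p. The text describes only part of these, and no rule set which part. Among those left out are Tab2, Tnfsf12 and Pycard with IL-4, Tnfrsf1b with IFN-γ, and Rel and Nfkbia at heme-albumin 200. The labels of the higher heme-albumin dose differ by replicate in 1 field, and the dose of 400 µM in the titles was used.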

Additional observations from a re-analysis of the deposited data

How the results depend on the processing

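Over 90 values (9 genes in 10 comparisons) and their alternatives, 1911 of 2018 recomputed values kept direction and call, 44 lost a call, 29 gained one and 34 changed sign, none of those called; the cause was not tested. The count of members called at heme-albumin 400 was 2, and 1 to 3 with 1 library left out. With IL-4 it was 4, and 7 with the replicate number as a block in only the 6 libraries compared; at heme-albumin 200 it was 3 (2 to 4 with 1 library left out), with IFN-γ 7 (5 to 9) and over the 6 treatment pairs 33 (32 to 37). Sign changes at heme-albumin 400 against control were Il18bp under the replicate block (-0.0108, and -0.00227 with only the 6 libraries compared). Between the doses they were Tnf without a filter (-0.00302), Il1b under the block (-0.117) and, without both libraries that stood apart, Il1a (-0.481) and Il10 (0.0736). Il1rn at heme-albumin 400 against IL-4 was -0.0160 without a filter, -0.0181 under the block and -0.223 without those libraries. With 1 library left out, values that crossed 0 ranged, at heme-albumin 400 against control, from -0.947 to 0.659 for Il1a, -0.170 to 0.163 for Il18bp and -0.309 to 0.262 for Il27. At heme-albumin 200 they ranged from -0.157 to 0.00371 for Tnf and -1.94 to 0.431 for Il1a, and with IL-4 from -1.37 to 1.67 for Il1f9. Between the doses they ranged from -0.117 to 0.0790 for Tnf, -0.493 to 1.70 for Il1a, -0.895 to 0.644 for Il1b and -0.555 to 0.0736 for Il10. Against IL-4 they ranged from -0.836 to 0.703 for Il1b and -0.244 to 0.134 for Il1rn at heme-albumin 400, and -0.213 to 0.370 for Il1b at heme-albumin 200. Over all genes, calls at heme-albumin 200 against control were 2785, and 4456 with only the 6 libraries compared, 4936 with the block as well, 1787 without control replicate 1, 1679 without heme-albumin 200 replicate 2 and 4430 without both libraries that stood apart. With IL-4 they were 3190, and 5150 and 6546 in the fits of 6 libraries without and with the block. Between the doses they were 0, and 13 by DESeq2, 244 with the block in 6 libraries, and 1 without IFN-γ replicate 3. For heme-albumin 400 against IFN-γ they were 5097, and 2741 and 2038 in 6 libraries without and with the block, and for heme-albumin 200 against IFN-γ 4998, and 2904 in 6 libraries with the block (3484 without it). Il1a, Il1b, Il6 and Il1f9 rest on few counts outside their high group, which limits their folds.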

Other observations

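Of 16 ligands of the TNF superfamily other than Tnf that were counted, 9 were tested, and 2 rose and 2 fell at each heme-albumin dose, 3 rose and 1 fell with IFN-γ, and 1 rose and 4 fell with IL-4, with median log2 fold changes of -0.58 at 400 µM, 0.15 at 200 µM, 0.55 with IFN-γ and -1.20 with IL-4. Tnfsf4, the OX40 ligand gene, was at 7.66, 28.7 and 5.90 CPM at heme-albumin 400 and at 8.23, 5.49 and 5.94 CPM at heme-albumin 200, against 1.60, 0.484 and 1.29 CPM in controls. Its log2 fold change was 3.65 ± 0.64 at 400 µM (adjusted p = 0.00104, and 2.60 without heme-albumin 400 replicate 2, adjusted p = 0.00276) and 2.57 ± 0.64 at 200 µM (adjusted p = 0.0106, and 0.0541 without control replicate 2). Its highest library was heme-albumin 400 replicate 2, as for Il1f9, while at 200 µM replicate 2 was its lowest. Tnfsf10, the TRAIL gene, was at 36.6, 36.5 and 31.1 CPM with IFN-γ, against 2.11, 4.05 and 1.83 CPM in controls (3.67 ± 0.32, adjusted p = 1.28e-06). It was below 1 CPM in all 6 heme-albumin libraries (-1.77 ± 0.41 at 400 µM, adjusted p = 0.00688; -2.47 ± 0.44 at 200 µM, adjusted p = 0.00128). Tnfsf13b, the BAFF gene, rose with IFN-γ by 3.81 ± 0.39 (adjusted p = 6.30e-06), and Tnfsf14, the LIGHT gene, fell by 2.79 ± 0.50 with IL-4 (adjusted p = 9.30e-04).

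Of 22 other interleukin genes 3 were tested. Il15, a growth factor of NK and memory T cells, averaged 43.4 ± 7.17 CPM with IFN-γ, 14.2 ± 1.92 CPM with IL-4 and 21.8 ± 0.841 CPM in controls (SD, n = 3 each). It rose with IFN-γ by 0.99 ± 0.12 (adjusted p = 3.56e-05) and fell by 0.62 ± 0.13 with IL-4 (adjusted p = 0.00244). The IL-12 and IL-23 genes Il12a, Il12b and Il23a had at most 4 counts in any group. Of 7 dendritic cell markers 2 were tested. Clec9a averaged 39.0 CPM with IFN-γ and rose there by 10.23 ± 0.65 (adjusted p = 3.23e-07), beside the rise of Il27 and Il18bp. It shares 184 exon bases with Clec1b on the same strand, so its count is uncertain. Zbtb46 was not called with IFN-γ (-0.06 ± 0.71, adjusted p = 0.952) and was called higher with IL-4 (2.24 ± 0.60, adjusted p = 0.0133). The list summed to 27.1 to 60.2 CPM with IFN-γ, at most 12.6 CPM without Clec9a, and to 0.423 to 1.07 CPM in controls. The part of such cells in the rises of Il27 and Il18bp was not tested.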
